A study of Halocynthia roretzi with 24 samples.

Results

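A group of 84 gene models of the ascidian *Halocynthia roretzi* was weakly present in 8-cell embryos and, at 110 cells, more abundant in the animal than in the vegetal hemisphere. The group was selected on measured values, by limits on mean RPKM, the number of reads per kilobase of exon and per M (mega) reads in a library, from 16078 models. The largest of the animal, vegetal and whole 8-cell means had to be at least 1 RPKM and the smallest below 5 RPKM. The animal 110-cell mean had to be at least 5 RPKM, and the animal to vegetal ratio at 110 cells, with 1 added to each mean, at least 2. Of 6 identifiers left out by name, 3 met these limits. The 84 models make up 0.522% of all models, and 2315 models met the 8-cell limits whatever their level at 110 cells. Since these same values chose the members, their 110-cell hemisphere levels, and their changes between the stages within a hemisphere, are descriptions with no test. Their change in whole embryos is favoured by the rule as well and is read with that limit.

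Libraries of total RNA came from wild-type embryos of a southwestern Japanese population that had been bred in an inland laboratory. Animal hemispheres, vegetal hemispheres and whole embryos had 4 libraries each at 110 cells and 4 each at 8 cells, with numbers from 2 to 5, so that 24 libraries formed 6 groups. The labels do not say how the hemispheres were separated, how many embryos entered a library or what a number marks, so a p-value here covers only the spread among the libraries, which may be technical. In these bulk samples, fewer cells of a type and less RNA per cell cannot be told apart, and RPKM gives a share of the reads in genes, not an amount per embryo.

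In ascidians the early embryo runs on RNA that the mother loaded into the egg, and transcription from the embryo's own genome is added during cleavage. The animal blastomeres give rise mainly to epidermis and to parts of the nervous system. The vegetal blastomeres give rise to endoderm, notochord, muscle and mesenchyme, together with further parts of the nervous system. The 110-cell stage lies close to the onset of gastrulation, when most blastomeres are already restricted in fate. No egg library was analysed here, so RNA at 8 cells is called maternal from the stage alone.

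The files name no genes. Of the 84 models, 56 had a note with a best match that begins with KH, the form used for gene models of the ascidian *Ciona*, 2 had a match to a protein record and 26 had no match. The KH shares were close, at 66.7% of members and 71.5% of the 12703 models tested, and no role could be given to any member. All identifiers begin with Harore.CG.MTP2014., which is left out below, and coordinates are those of the deposited annotation on its numbered scaffolds.

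Depth, inferred from the steps between low RPKM values, ran from 3.23 to 9.09 M reads (median 5.78 M). For a model with 1.5 kb of exons, 3 reads equalled 0.22 to 0.619 RPKM, a floor that covers counting error only. The mitochondrial models of scaffold S964 summed to 2229 to 2662 RPKM in animal and 4902 to 10382 RPKM in vegetal 110-cell libraries. At 8 cells these sums were 1753 to 1902 RPKM in animal and 4224 to 5779 RPKM in vegetal libraries, so no hemisphere library went against its label by this measure. The S964 models were taken because an earlier account of these same data had them higher in vegetal hemispheres. They are therefore not an independent check of the labels. Several libraries stood apart for the members. In whole 110-cell library 3 the members' median was 6.27 RPKM, against 11.8, 9.48 and 10.6 RPKM in numbers 2, 4 and 5. That library held the lowest whole 110-cell value for 44 of the 84 models. Its S964 sum, 2418 RPKM, lay within the animal 110-cell range, against 5478, 3073 and 4725 RPKM in whole libraries 2, 4 and 5. Whole 8-cell sums ran from 2393 to 6363 RPKM. What this means for the members' values was not tested. Vegetal 110-cell library 5 had a median of 6.09 RPKM over the 84 models, against 3.23, 4.01 and 3.31 RPKM in numbers 2, 3 and 4, and held the highest vegetal value for 43 of them. Whole 8-cell library 3, the shallowest of all at 3.23 M reads, had a median of 2.47 RPKM, against 1.49, 1.78 and 1.39 RPKM in numbers 2, 4 and 5, and held the highest whole-embryo value for 30 of them. In the same library the summed level of 164 models that were below 1 RPKM in every 8-cell group and animal at 110 cells was 65.2 RPKM, against 21.5, 44.6 and 30.8 RPKM in numbers 2, 4 and 5. Without vegetal 110-cell library 5 the rule gave 98 models, 83 of them members. Without whole 8-cell library 3 it gave 86, 82 of them members. Both alternatives were added after the data were seen.

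**Figure D1:**
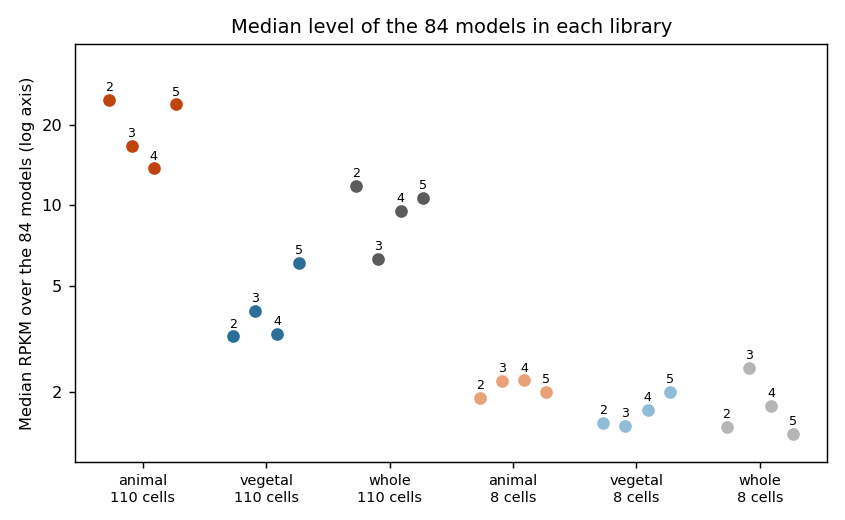
Median RPKM (log axis) over the 84 models in each of the 24 libraries, by group, with each point marked by its replicate number. The animal 110-cell medians ran from 13.7 to 24.8 RPKM and lay above all other libraries, vegetal library 5 led its group at 6.09 RPKM, and the 8-cell medians ran from 1.39 to 2.47 RPKM.

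Across the 84 models the median of the group means was 20.1 RPKM in animal hemispheres at 110 cells, with a range of 5.06 to 239 RPKM. In vegetal hemispheres at 110 cells the median was 4.0 RPKM (0.576 to 42.0), and in whole 110-cell embryos 8.96 RPKM (1.71 to 107). At 8 cells the medians were 2.27 RPKM in animal hemispheres, 1.86 RPKM in vegetal hemispheres and 1.83 RPKM in whole embryos. The animal mean was therefore not set against an empty vegetal hemisphere, since 33 members had a vegetal 110-cell mean of 5 RPKM or more. The ratio of the rule ran from 2.02 to 13.9 with a median of 3.42.

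The 8-cell levels were low and unevenly detected. The largest 8-cell mean had a median of 2.47 RPKM, 35 members stayed below 2 RPKM, and 72 had every 8-cell mean below 5 RPKM. Over the 12 libraries of 8 cells, the reads inferred per member numbered 19.8 to 1695 with a median of 154. At least 3 reads were reached in all 12 libraries by 35 members, in 6 to 11 libraries by 37 and in fewer than 6 libraries by 12. For these 12 the word maternal rests on few reads. For other members it may rest on 1 replicate number. S276.g03761, outside these 12, had 8.49, 7.51 and 8.70 RPKM in animal, vegetal and whole 8-cell libraries of number 5. It had at most 0.532 RPKM in the 8-cell libraries of other numbers. In the 4 animal 110-cell libraries all members but S382.g05374 reached 3 reads throughout. All 84 passed the filter of 1 RPKM in at least 4 libraries, 79 of them through 8-cell libraries alone.

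**Figure D2:**
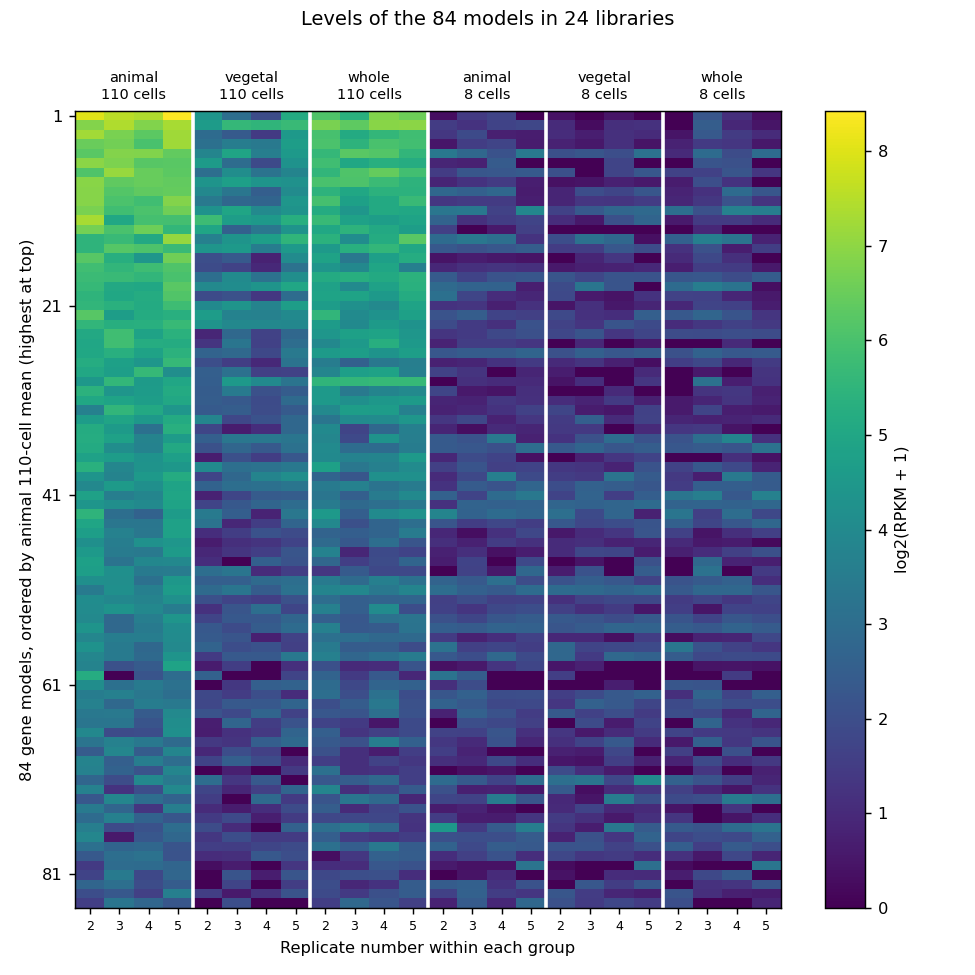
Level of the 84 models, as log2(RPKM + 1), in the 24 libraries, with models in rows by falling animal 110-cell mean and libraries in columns by group and replicate number. The 4 animal 110-cell columns are the brightest, whole 110-cell columns lie between the hemispheres for most rows, and the 12 columns of 8 cells are dark throughout.

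By animal 110-cell mean, 18 members reached 50 RPKM or more, 43 lay from 10 to below 50 RPKM and 23 lay below 10 RPKM. The highest was S299.g00917 (scaffold S299, 76353 to 77940, minus strand, 7 exons, match KH.S1269.2). It stood at 259, 187, 169 and 343 RPKM in animal 110-cell libraries 2 to 5, against 20.04, 7.29, 2.92 and 34.8 RPKM in the vegetal ones. Whole 110-cell embryos had 67.3, 39.6, 112 and 93.2 RPKM. Every whole-embryo value lay between the hemispheres, and no vegetal library reached an animal one. At 8 cells this model was listed at 0 in 4 of 12 libraries and was highest, at 3.80 RPKM, in whole library 3.

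S474.g04234 (S474, 37154 to 39190, plus strand, 4 exons, match KH.C1.99) was the next highest and was abundant on both sides. Its animal 110-cell values were 114, 169, 114 and 161 RPKM, against vegetal values of 23.9, 47.8, 45.1 and 51.3 RPKM. The vegetal mean of 42.0 ± 12.4 RPKM (SD, n = 4) was the highest of any member. At 8 cells it had 1.82, 1.33, 2.21 and 2.51 RPKM in animal hemispheres, against 1.04, 0.209, 1.204 and 1.30 RPKM in vegetal ones. These 8-cell values did not overlap, and this was the only member whose animal values all exceeded the vegetal ones at 8 cells.

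S172.g11557 (S172, 43619 to 49446, plus strand, 13 exons, a protein record as match) had 151, 105, 77.5 and 149 RPKM in animal 110-cell libraries, against 6.75, 4.25, 1.70 and 22.2 RPKM in vegetal ones. Vegetal library 5 was again the highest of its group. S31.g03142 (S31, 66087 to 89202, plus strand, match KH.L18.100) averaged 99.4 ± 35.3 RPKM in animal hemispheres, against 13.2 ± 7.82 RPKM in vegetal ones (SD, n = 4 each). Its span, introns included, is overlapped by 6 other models. Whether their exons overlap was not examined, and where they do, some of its reads may belong to them. S46.g03741 (match KH.C1.159) averaged 95.5 ± 24.3 RPKM in animal hemispheres, against 12.9 ± 9.63 RPKM in vegetal ones, and at 8 cells it was listed at 0 in 3 of 4 vegetal libraries.

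S277.g01204 (S277, 109707 to 111006, minus strand, match KH.C8.400) had the most RNA at 8 cells among the 8 highest members. Its 110-cell values were 76.6, 116, 112 and 83.1 RPKM in animal hemispheres and 13.2, 29.5, 11.1 and 21.8 RPKM in vegetal ones. At 8 cells it had 9.44, 6.02, 3.36 and 9.64 RPKM in animal hemispheres, and 3.18, 3.82, 3.06 and 7.92 RPKM in vegetal ones. The 8-cell ranges overlapped: vegetal libraries 3 and 5 exceeded the lowest animal library. S255.g04224 (match KH.C13.22) averaged 93.3 ± 32.0 RPKM in animal hemispheres, against 11.3 ± 4.42 RPKM in vegetal ones at 110 cells, and S8.g09414 (match KH.C10.574, an intronless model) 93.2 ± 19.2 and 20.8 ± 3.31 RPKM, animal and vegetal (SD, n = 4 each).

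**Figure D3:**
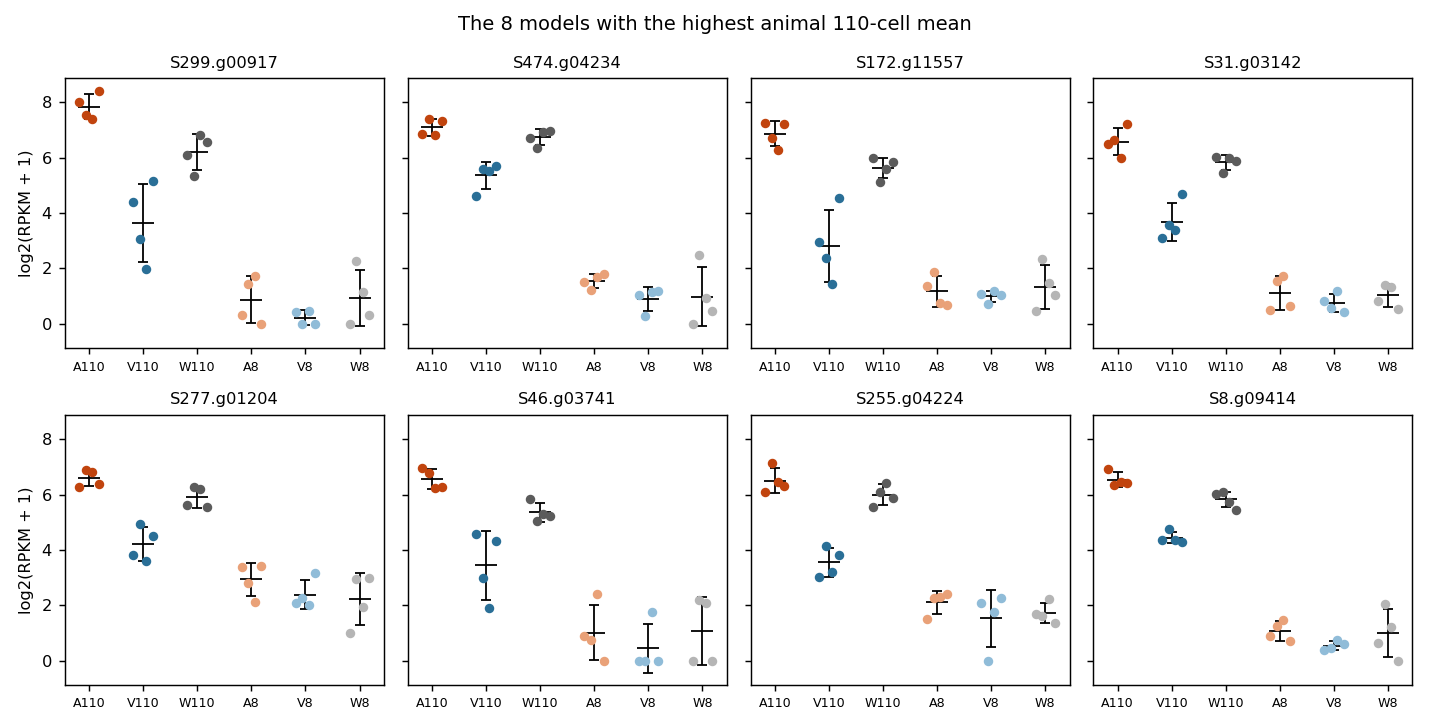
Values of the 8 members with the highest animal 110-cell mean, as log2(RPKM + 1), in animal (A), vegetal (V) and whole (W) libraries at 110 and 8 cells, with points for libraries and bars for the mean and SD of 4. In each panel the 4 animal 110-cell points lie above the 4 vegetal ones and every 8-cell point lies below every 110-cell animal point. The vegetal spread is wide in S299.g00917 and S172.g11557.

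The largest ratio of the rule, 13.9, belonged to S299.g00917. Next came S49.g06925 (S49, 116413 to 120488, minus strand, match KH.C3.905) with 12.8 and S172.g11557 with 12.5. S49.g06925 had 56.7, 45.8, 55.0 and 68.6 RPKM in animal 110-cell libraries, against 2.83, 2.14, 0.951 and 8.12 RPKM in vegetal ones. S249.g15721 (match KH.S553.1) averaged 45.2 ± 17.2 RPKM in animal hemispheres, against 3.59 ± 2.26 RPKM in vegetal ones. S72.g09210 (match KH.C1.1049) averaged 57.4 ± 34.5 RPKM in animal hemispheres, against 5.92 ± 6.64 RPKM in vegetal ones. S14.g04395 (match KH.L3.5) averaged 39.6 ± 12.3 RPKM on the animal side and 3.86 ± 2.74 RPKM on the vegetal side (SD, n = 4 each). For none of these did a vegetal library reach the lowest animal one.

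The rule chose members on the animal and vegetal means of the 110-cell libraries, so counts within each replicate number are a description. Within numbers 2, 3, 4 and 5 the ratio of the rule reached 2 in 79, 61, 63 and 73 of the 84 members. Animal exceeded vegetal RPKM in 83, 81, 83 and 84 of the 84 members for numbers 2, 3, 4 and 5, and the median log2 ratio, with 1 added to each value, was 2.35, 1.69, 1.70 and 1.93. In the fit over all models 62 members were called higher in animal hemispheres at 110 cells (limma, adjusted p under 0.05), against 3.64% of all models tested in that direction. Since the rule chose on this contrast, the count only describes how the chosen means stood against the spread.

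The vegetal hemisphere mostly had more of these RNAs at 110 than at 8 cells as well. The vegetal mean at 110 cells was above the one at 8 cells for 71 members and below it for 13. It was at least 2 times higher for 46 members and at most 0.5 times for 4. In the fit, 31 members were called higher in vegetal hemispheres at 110 than at 8 cells, where 11.6% of all models were, and 0 lower, where 11% of all models were. For the animal hemispheres 70 members were called higher at 110 cells, where 7.15% of all models were, and 0 lower, where 5.89% were. Both contrasts enter the rule and are given as description.

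On the log2(RPKM + 1) scale, the steepest vegetal increases were those of S474.g04234, S8.g09414 and S221.g14888. S474.g04234 averaged 42.0 ± 12.4 RPKM in vegetal hemispheres at 110 cells, against 0.939 ± 0.498 RPKM at 8 cells, and S8.g09414 20.8 ± 3.31 against 0.463 ± 0.174 RPKM (SD, n = 4 each). S221.g14888 (S221, 36625 to 37363, minus strand, no match) had 29.7, 4.99, 9.15 and 18.9 RPKM in vegetal 110-cell libraries and was listed at 0 in all 4 vegetal 8-cell libraries. Against the mean of 3 reads per library, 0.842 RPKM, this was at least 18.6-fold higher. By ratio of mean RPKM, S299.g00917 stood above S474.g04234 and S8.g09414, but over a vegetal 8-cell mean of 0.183 RPKM, with 0 in 2 of 4 libraries, so no fold is given for it.

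At the other end, S27.g08054 (match KH.C1.429) had 0, 3.10, 0 and 0 RPKM in vegetal 110-cell libraries, against 3.26, 1.74, 2.51 and 1.80 RPKM at 8 cells. S78.g02865 (no match) averaged 3.16 ± 3.08 RPKM in vegetal hemispheres at 110 cells and 8.56 ± 5.41 RPKM at 8 cells. S25.g08118 (match KH.C4.9) averaged 1.04 ± 1.22 RPKM in vegetal hemispheres at 110 cells and 2.44 ± 1.90 RPKM at 8 cells (SD, n = 4 each). All of these 3 are short, with 216 to 342 bases of exon sequence, overlap another model and had animal 110-cell means of 5.06 to 8.08 RPKM.

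The members were also compared between the hemispheres at 8 cells, where the rule does not use which hemisphere is higher. It does use the largest 8-cell mean, so a member low elsewhere could enter only through the group where it was high. No member was called in either direction (limma, two-sided, Benjamini-Hochberg over 12703 models). Over all models 0 (0%) were called higher in animal and 15 (0.118%) higher in vegetal hemispheres at 8 cells. At an unadjusted p under 0.05 stood 2 members and 345 models in all. The 2 were S255.g13142, with a log2 difference of 0.94 ± 0.39 (SE), and S221.g14888, with 0.94 ± 0.42, both at an adjusted limma p of 1. S255.g13142 had 0.780, 1.90, 1.89 and 1.53 RPKM in animal 8-cell libraries, against 0, 0.895, 0 and 0.464 RPKM in vegetal ones, so the ranges overlapped. Separate ranges were found in 1 member with animal higher, S474.g04234, and in 1 with vegetal higher, S638.g13880, where 1.27% and 1.09% of all models had them. S255.g13142 and S221.g14888 met the limit of 1 RPKM only through their animal 8-cell means, 1.53 and 1.13 RPKM. S638.g13880 met it only through its vegetal 8-cell mean, 1.30 RPKM. The differences of these members therefore come from values that the rule used and are descriptions.

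The distribution at 8 cells leaned to the animal side without any call. Members could meet the limit of 1 RPKM through 1 hemisphere alone, so the choice may enter this lean, and its part was not tested. The median log2 difference, animal over vegetal, was 0.21 over the members, with a range of -0.71 to 1.05, and was positive in 57 of 84. The median was 0.018 over the 2299 tested models that met the same 8-cell limits, of which 52.5% were positive, and 0.0045 over all models. In the 18 members at 50 RPKM or more it was 0.51 with 16 positive, in the 43 middle ones 0.081 with 27 positive, and in the 23 lowest 0.12 with 14 positive. This split uses the animal 110-cell mean, a value of the rule, and members are not replicates, so nothing is read from it. Within numbers 2, 3, 4 and 5 the median log2 ratio was 0.31, 0.19, 0.14 and 0.023, and animal exceeded vegetal RPKM in 55, 51, 47 and 44 members, so the lean was smallest in number 5. The median over the members was 0.13 without number 3, 0.32 without number 5 and 0.42 with a pseudocount of 0.1. Same-numbered libraries of a hemisphere deviated together between the stages (correlations over all models of 0.13 to 0.47 in animal and 0.15 to 0.37 in vegetal hemispheres), so the 8-cell values are not wholly independent of the 110-cell values that chose the members.

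**Figure D4:**
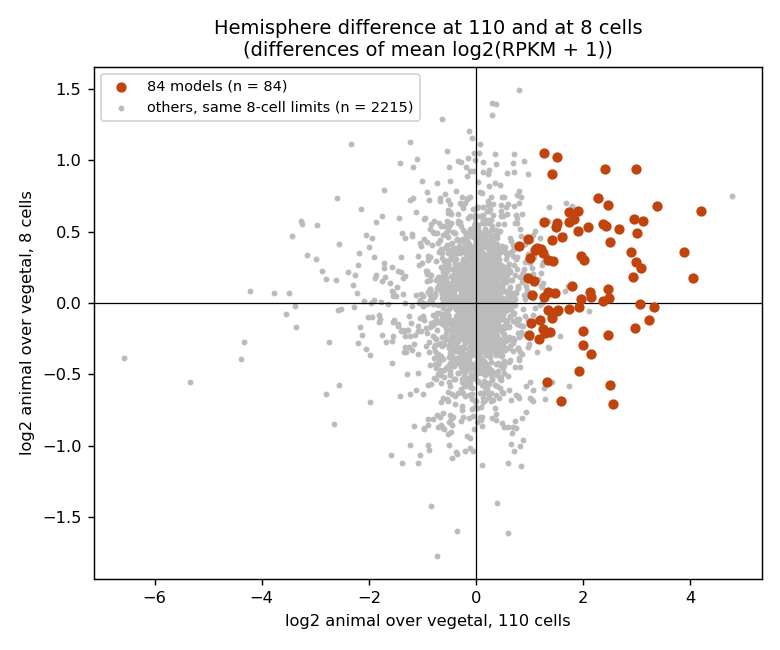
Difference of mean log2(RPKM + 1), animal over vegetal, at 110 cells (x axis) and at 8 cells (y axis) for the 84 members and for the 2215 other tested models within the same 8-cell limits. The members lie to the right because the rule chose them so; on the y axis they run from -0.71 to 1.05 with a median of 0.21.

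A group with the same 8-cell limits and the mirrored 110-cell limits held 104 models turning vegetal. Its median log2 difference at 8 cells, animal over vegetal, was -0.0040, with 51 of 104 positive. The 164 models below 1 RPKM in every 8-cell group and animal at 110 cells had a median of 0.059. Neither group had a model called at 8 cells. The difference in medians between the groups was not tested, since models are not replicates.

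In whole embryos 47 of the 84 members were called higher at 110 than at 8 cells. The rule did not use the whole 110-cell libraries, but it favours an increase at both ends: it limits the 8-cell means, whole embryos included, from above, and it asks for 5 RPKM at 110 cells in the animal hemisphere, which whole embryos contain. The counts are therefore a description of the members. The 47 made up 56% and 0 members were called lower (limma, adjusted p under 0.05), where 13.5% of all models were higher and 10.9% lower. Without whole 8-cell library 3 the count was also 47, and without whole 110-cell library 3 it was 50. The libraries of the stages did not overlap for 48 members, all higher at 110 cells, where 14.2% of all models were higher in this way. The median log2 change was 1.42 over the members and 0.045 over all models, and 81 of 84 members had a positive value. The ratio of mean RPKM, 110 over 8 cells, had a median of 4.51. The 104 models turning vegetal had 59 called higher, with a median of 1.29, and the 164 animal models below 1 RPKM at 8 cells had 124 called higher, with a median of 2.29.

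Split by the animal 110-cell mean, a value that the rule used and that enters the whole embryo, the counts described the split itself. All 18 members at 50 RPKM or more were called higher in whole 110-cell embryos, with a median log2 change of 3.92. Of the 43 middle members 27 were called, with a median over the 43 of 1.65. Of the 23 members below 10 RPKM the 2 called were S638.g13880 and S23.g02624, and the median over the 23 was 0.54. Nothing beyond the order of the levels is read from this.

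On the log2(RPKM + 1) scale the largest change in whole embryos was that of S474.g04234. It had 104, 80.4, 122 and 123 RPKM at 110 cells, against 0, 4.57, 0.932 and 0.394 RPKM at 8 cells. The log2 change was 5.76 ± 0.37 (SE, limma). S299.g00917 rose by 5.27 ± 0.56 and S8.g09414 by 4.84 ± 0.30 on the same scale. These members were named for the size of this change, and the rule limits the 8-cell means, so no p-value is given for them. S221.g14888 had 31.3, 42.6, 33.0 and 24.6 RPKM at 110 cells and, at 8 cells, 0.929 RPKM in library 3 and 0 in the other libraries. In all 4 of these models the libraries of the stages did not overlap, and whole 8-cell library 3 was the highest of its group. By ratio of mean RPKM, 110 over 8 cells, S221.g14888 and S255.g13142 stood above S474.g04234, but over whole 8-cell means of 0.232 and 0.249 RPKM that rest on 1 library each, so no fold is given for them.

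The members with the smallest change had no call. S130.g10328 had 4.76, 1.85, 1.54 and 1.90 RPKM in whole embryos at 110 cells, against 2.38, 2.95, 2.63 and 5.10 RPKM at 8 cells, a log2 change of -0.32 ± 0.48 (SE, limma, adjusted p = 0.692). S70.g06296 stood at -0.29 ± 0.66, S1722.g00182 at -0.04 ± 0.67 and S193.g10432 at 0.11 ± 0.44, with adjusted limma p of 0.804, 0.978 and 0.899. The direction of the last 3 changed with the library left out. S1722.g00182, an intronless model of 240 bases, also went against the name of the group: it was the only member with a lower animal mean at 110 cells, 6.12 ± 3.88 RPKM, than at 8 cells, 9.75 ± 8.93 RPKM (SD, n = 4 each). S1003.g01909, with a log2 change of 0.74 ± 0.27, lay at the threshold (limma, adjusted p = 0.0501), and its adjusted p ran from 0.0177 to 0.237 over 19 other settings. The rule favours an increase in whole embryos, so these p-values only describe the members.

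Whole 110-cell embryos lay between the hemispheres for 77 members, above the animal mean for 3 and below the vegetal mean for 4. On a scale with the vegetal mean at 0 and the animal mean at 1, the median position of whole embryos was 0.326, with quartiles of 0.202 and 0.491. The whole-embryo mean was nearer the vegetal mean for 64 members and nearer the animal mean for 20. Within numbers 2, 3, 4 and 5 the median positions were 0.397, 0.257, 0.545 and 0.189 (SD 0.158 over the numbers). On the log2(RPKM + 1) scale the median was 0.507, so which hemisphere whole embryos resembled depended on the scale. The rule picked high animal means, which can lower this position by the choice alone. For the 104 models turning vegetal, where the choice works the other way, the median was 0.582, and for the 164 animal models below 1 RPKM at 8 cells it was 0.255.

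**Figure D5:**
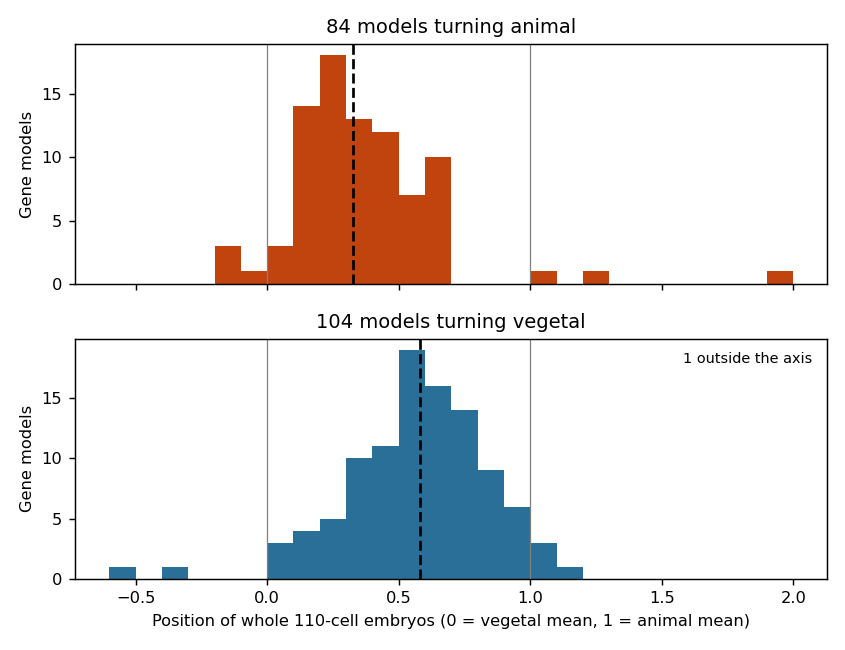
Number of models by the position of the whole 110-cell mean between the vegetal (0) and animal (1) means, on the RPKM scale, for the 84 members (top) and the 104 models turning vegetal (bottom, 1 model outside the axis). Dashed lines mark the medians, 0.326 and 0.582.

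The spread between libraries left few of these positions distinct. The 4 whole 110-cell values were all below the 4 animal ones for 28 members and all above the 4 vegetal ones for 28, and 13 members met both conditions. No share over all models was taken for these counts, and the rule set the animal and vegetal means apart. They describe the members only. Among the 13 members that met both conditions was S89.g01396 (S89, 255682 to 265195, minus strand, 11 exons, match KH.L39.1). It had 52.4, 51.8, 45.9 and 63.6 RPKM in animal, 7.31, 15.5, 8.00 and 16.9 RPKM in vegetal and 34.9, 38.2, 33.5 and 41.5 RPKM in whole 110-cell libraries. No member had all whole values above the animal or all below the vegetal ones.

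S224.g08492 (S224, 55375 to 58365, minus strand, match KH.C2.469), chosen after its values were seen, had the highest position, 1.93. It had 44.2, 46.5, 49.0 and 48.9 RPKM in whole 110-cell embryos, against 20.8, 47.1, 23.1 and 31.0 RPKM in animal and 4.72, 22.1, 14.9 and 8.38 RPKM in vegetal hemispheres. Animal library 3 reached the whole-embryo range and the other animal libraries did not. The others above the animal mean were S1003.g01909 and S1722.g00182. Below the vegetal mean lay S297.g05892, S532.g12125, S60.g15925 and S83.g14746.

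At the limit of the rule, the members just inside were S80.g05593, S1003.g01909 and S2023.g11717, with ratios of 2.02, 2.06 and 2.09. S80.g05593 averaged 5.70 ± 2.29 RPKM in animal 110-cell hemispheres, against 2.32 ± 1.42 RPKM in vegetal ones (SD, n = 4 each). Just outside were S159.g11125, S87.g08151 and S49.g10749, with ratios of 1.97, 1.96 and 1.93. S87.g08151 averaged 7.72 ± 7.83 RPKM in animal hemispheres, against 3.44 ± 1.68 RPKM in vegetal ones, so the models on either side of the limit differed by less than their own spread.

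Some members lay side by side. The 84 models fell on 65 scaffolds, of which 14 held 2 or more members and S3 held 4, and 11 pairs lay within 10 kb. S255.g13142 (26454 to 26961) begins 34 bases after S255.g04224 (21639 to 26420) on the same strand. S255.g13142 had 30.7, 56.3, 36.0 and 35.0 RPKM in animal 110-cell libraries and its neighbour 68.0, 140, 86.9 and 78.4 RPKM, with library 3 highest and library 2 lowest in both. The vegetal order was also shared in that library 3 was highest in both. No read spans were available to tell adjoining models from parts of 1 transcript.

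On S89, a run of 3 members held S89.g01396, S89.g09782 at 169 bases from it and S89.g10669 a further 13 bases away on the other strand. Their animal 110-cell means were 53.4 ± 7.40, 30.04 ± 10.1 and 10.5 ± 4.12 RPKM, and their vegetal means 11.9 ± 4.97, 5.56 ± 2.94 and 2.91 ± 2.52 RPKM (SD, n = 4 each). On S49, S49.g06925 and S49.g01787 overlap on opposite strands, and S49.g01787 averaged 16.8 ± 4.15 RPKM in animal hemispheres, against 1.35 ± 0.685 RPKM in vegetal ones. On S297, S297.g05892 and S297.g04059 lie 729 bases apart. S297.g05892 had 158 RPKM in animal library 2 and 31.4 to 60.03 RPKM in the others, while S297.g04059 had 18.7 to 26.98 RPKM. Library 2 was the highest for both, far above the rest for S297.g05892 alone.

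The libraries did not keep strand, so where exons of different models overlap, strand cannot tell their reads apart. Overlap was counted here on whole spans, introns included, and whether exons overlap was not examined. Another model overlapped 28 members (33.3%, and 36.1% of all models tested), on the opposite strand for 21 and on the same strand for 9. Of 27 tested models that overlap a member and are not members, 10 (37.0%) were called higher in animal and 0 higher in vegetal hemispheres at 110 cells (limma, adjusted p under 0.05), where 3.64% and 5.51% of all models were. Of 83 tested nearest neighbours within 10 kb that do not overlap and are not members, 13 (15.7%) were called higher in animal and 1 in vegetal hemispheres. Reads shared with the member may enter the overlapping models' counts, and their part was not tested.

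Examples of such neighbours reached levels like those of the members. S44.g07571 overlaps S44.g06887 on the opposite strand and averaged 74.7 ± 26.5 RPKM in animal 110-cell hemispheres, against 7.54 ± 7.78 RPKM in vegetal ones, and S44.g06887 itself averaged 88.5 ± 32.1 and 10.4 ± 6.99 RPKM (SD, n = 4 each). S249.g06506, 1274 bases from S249.g15721 on the same strand, averaged 105 ± 26.2 RPKM in animal hemispheres, against 29.0 ± 11.2 RPKM in vegetal ones, and had a largest 8-cell mean of 26.997 RPKM. S445.g12734, 30 bases from S445.g04004 on the other strand, averaged 117 ± 43.9 RPKM in animal hemispheres, against 29.1 ± 16.6 RPKM in vegetal ones. The only neighbour called the other way was S172.g11061, 6562 bases from S172.g11557, with a mean of 1.71 ± 0.808 RPKM in animal hemispheres, against 25.4 ± 16.6 RPKM in vegetal ones. These neighbours were chosen after their values were seen.

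Models that shared a best match with a member were mixed in direction. The match was shared with another model for 31 of the 56 members that had a KH match (55.4%), where the share was 45.0% over all models tested and 57.6% within the same 8-cell limits. Of 50 tested models that share a match with a member and are not members, 5 (10%) were called higher in animal and 7 (14%) higher in vegetal hemispheres at 110 cells, where 3.64% and 5.51% of all models were, with a median log2 difference of -0.01. The match KH.C3.378, for example, covers 10 models. Its member S514.g12408 averaged 15.6 ± 5.62 RPKM in animal hemispheres, against 5.88 ± 1.23 RPKM in vegetal ones (SD, n = 4 each). S44.g05471 and S635.g07936, with the same match, had animal means of 0.996 and 0.219 RPKM and vegetal means of 13.8 and 13.3 RPKM. Only KH.L22.70 was shared by 2 members, S389.g05118 and S382.g05374. S382.g05374, at the start of its scaffold with 177 bases of exon, rested on 36.1 RPKM in animal library 2, against 0, 3.60 and 6.84 RPKM in libraries 3, 4 and 5.

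At the median, the members' annotated models were shorter and had fewer exons than all models tested. The exon sequence had a median of 1102 bases (177 to 7101), against 1551 bases over all models tested and 1272.5 bases within the same 8-cell limits. The median number of exons was 4, against 6 in both of the wider groups. A single exon was annotated in 8 members (9.52%), in 12.2% of all models tested and in 10.1% within the same 8-cell limits. By strand 32 members were on the plus and 52 on the minus strand of their scaffolds.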

How the data were processed

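The authors deposited RPKM values per gene model for 24 libraries with a gene annotation. HISAT2 is named in the submitters' processing notes, without a version; genome build and read counter: not given in the sources used here. Per the labels' protocols, RNA was isolated with Trizol and the TruSeq libraries used here were not strand-specific. Reads per library were inferred from the steps of low RPKM values, of which 65.5% to 73.6% were whole to within 0.1 reads (20% by chance), so no count model was used. No library pair held identical values, and 0 columns of values were left unused.

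Models needed 1 RPKM in 4 or more libraries, which 12703 had. Their log2(RPKM + 1) values were fitted with limma 3.58.1 (R 4.3.3), all 6 groups together and with a trend in the prior variance. Two-sided p-values were corrected over these models (Benjamini-Hochberg, threshold 0.05). Log2 changes on this scale understate those of low models, and ratios without log2 are of mean RPKM. The fit was tested on simulated data, with changes added only to models above 5 RPKM at 8 cells. Since 72 members had every 8-cell mean below 5 RPKM, the simulation does not cover most of the members. The members and lists were chosen with earlier results of these data known.

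Models were named by rule. These were the 8 with the highest animal 110-cell mean, the 6 largest ratios and the extremes of the whole-embryo and vegetal stage changes. The 4 pairs of neighbours with the highest animal mean and the 3 on each side of the ratio limit were named too. Others were chosen after their values were seen. This holds for the other neighbours, the models sharing a match, S638.g13880, S23.g02624, S276.g03761 and the models outside the hemispheres' range. Gene lists and cell type markers could not be matched, since the files name no genes; scaffold S964 was the exception. At 8 cells, deviations of same-numbered animal and vegetal libraries correlated at 0.37 to 0.58 over all models. The main fit, which gave the 8-cell SEs and p-values above, did not use this pairing. With the number as a block 0 members were called there. Over all models 6 were then called higher in animal and 33 higher in vegetal hemispheres, against 0 and 15 in the main fit.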

Additional observations from a re-analysis of the deposited data

Results flagged for a closer look

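In 12 of the 174 groups of 4 libraries behind the named members, 1 library stood far from the others (a gap of more than 0.829 of the group's range). Chance gives about 1 in 20 groups. At 110 cells, animal library 2 had 122 RPKM of S8.g09414, with 86.8 RPKM next, and vegetal library 3 had 3.10 RPKM of S27.g08054, with 0 in the others. Vegetal library 3 also had 2.95 RPKM of S130.g10328, with 1.77 RPKM next. Whole library 2 had 4.76 RPKM of S130.g10328, with 1.90 RPKM next, and 49.6 RPKM of S297.g05892, with 28.5 RPKM next.

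At 8 cells, animal library 5 had 4.33 RPKM of S130.g10328, with 3.19 RPKM next, and vegetal library 5 had 7.92 RPKM of S277.g01204, with 3.82 RPKM next. Vegetal library 4 had 2.34 RPKM of S46.g03741 and 0.647 RPKM of S89.g10669, each listed at 0 in the other vegetal libraries. Vegetal library 3 was low for S89.g01396, at 2.51 RPKM, with 3.44 RPKM next. Whole library 3 had 0.929 RPKM of S221.g14888 and whole library 4 had 0.998 RPKM of S255.g13142, each listed at 0 in the other whole libraries.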

How the results depend on the processing

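With a pseudocount of 0.1, no filter or one at 5 RPKM, median-ratio or quantile scaling, only the groups compared, or a number or library left out, 0 members were called between the hemispheres at 8 cells, and 43 to 50 higher in whole 110-cell embryos; 74 of the 84 members were tested with the filter at 5 RPKM, of which 46 were called. Of the models that met the rule without whole 8-cell library 3, an alternative added after seeing the data, 45 were. Deviations of same-numbered whole-embryo libraries correlated at 0.39, 0.33, 0.42 and 0.081 between the stages, against at most 0.011 for other numbers. The main fit did not pair the stages by number. With the replicate block 55 members were called higher there, and 2464 of all 12703 models, against 1721 without it. At 8 cells the block changed no call of a member. The rule gave 47 models at a ratio of at least 3, 49 with a largest 8-cell mean of at least 2 RPKM, and 85 to 99 with a number left out, of which 62 to 76 were members; without number 2, 22 members left. The position of whole embryos was 0.507 on the log2 scale and 0.273 to 0.371 with a number left out.

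Of the named members' log2 changes in whole embryos, 12 values changed direction, none called, and the cause was not tested. S193.g10432 stood at -0.0234 with quantile scaling, -0.25 without replicate 4, -0.12 without whole 110-cell library 5 and -0.19 without whole 8-cell library 4. S70.g06296 stood at 0.32 without replicate 5 and 0.18 without whole 110-cell library 5. S25.g08118 stood at -0.0820 with quantile scaling and -0.0304 without replicate 2. S1722.g00182 stood at 0.61 without replicate 5, 0.43 without whole 110-cell library 5, and 0.04 and 0.14 without whole 8-cell library 4 or 5. With a number or library left out, the changes ran from -0.25 to 0.50 for S193.g10432, -0.81 to 0.32 for S70.g06296, -0.03 to 0.82 for S25.g08118 and -0.46 to 0.61 for S1722.g00182. S1003.g01909, S27.g08054 and S89.g10669 passed the threshold under 7, 3 and 3 settings. Depth of 3.23 to 9.09 M reads limits members near 3 reads.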
